A study of Homo sapiens with 6 samples.

Results

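The clustered replication-dependent histone genes are the source of most of the histone protein that packs newly copied DNA. They were taken here as every gene of the deposited table whose symbol, in the older spelling the table uses, begins with HIST1H, HIST2H, HIST3H or HIST4H, which gave 89 of 58884 genes. Of these, 8 belonged to the linker histone class H1, 23 to H2A, 25 to H2B, 17 to H3 and 16 to H4. GENCODE release 29 classes 71 of them as protein-coding and 18 as pseudogenes. The rule used names only and no measured value. It also takes in members with testis expression, such as HIST1H1T and HIST1H2BA, and so is wider than the group that follows the S phase.

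RNA was sequenced from DBTRG cells, an established human glioblastoma line labelled as wild type, after 5 days in a soft gel (3D, 3 libraries) or on a rigid dish (2D, 3 libraries). Both groups share the line, the genotype, the time in culture, TRIzol extraction and a TruSeq RNA library kit, and a single line limits how far the values carry. The labels do not say whether the 3 libraries of a group came from separate cultures, so each p-value reflects the spread among the libraries at hand, and that spread may be technical.

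A nucleosome holds pairs of H2A, H2B, H3 and H4 around which DNA is wound, and H1 binds the DNA between nucleosomes. In dividing cells the clustered genes are transcribed during S phase under the coactivator NPAT, and their messages lack introns and usually end not in a poly(A) tail but in a conserved stem-loop bound by SLBP. The U7 small nuclear RNP and a cleavage factor cut the transcript just after the stem-loop, and the message is degraded when DNA synthesis stops. Many of these genes can also be cleaved at a poly(A) site further downstream, which yields polyadenylated messages, described in differentiated and in non-dividing cells. Some variant histones, H3F3B and H2AFZ among them, come from genes outside the clusters with ordinary polyadenylated messages. The labels do not state whether the kit was used with poly(A) selection.

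The stem-loop is the element that sets these messages apart, and it was found in a GENCODE 29 transcript of 34 of the 89 genes. The histone stem-loop of 16 bases was searched on the transcript strand with a fixed pattern that allows a few base changes. Where it was not found, a short listed transcript, a variant element and a transcript that ends elsewhere were not told apart. The most common form, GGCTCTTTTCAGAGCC, stood in 18 genes, and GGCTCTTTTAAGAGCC in 5. The 8 H4 genes among them had forms seen in no other class, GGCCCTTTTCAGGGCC in 5 and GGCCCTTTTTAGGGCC in 3. The stem-loops of genes described below are printed 5′ to 3′ from those transcripts, with the 16-base element in capitals.
HIST1H2AC stem-loop: caaaGGCTCTTTTCAGAGCCcccc
HIST2H2AA3 stem-loop: aaaaGGCTCTTTTCAGAGCCaccc
HIST2H2BE stem-loop: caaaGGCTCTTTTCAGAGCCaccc
HIST1H2BD stem-loop: caaaGGCTCTTTTAAGAGCCacgc
HIST1H3E stem-loop: caaaGGCTCTTCTCAGAGCCaacc
HIST1H4H stem-loop: caaaGGCCCTTTTCAGGGCCgccc
HIST2H4A stem-loop: caaaGGCCCTTTTTAGGGCCgacc
HIST1H3E alone had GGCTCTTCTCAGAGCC among the 34 genes.

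The promoters are printed because the classes differ in the motifs they carry. RefSeq promoters (GRCh38.p14, 250 bases before to 50 bases after the start) were matched for 66 of the 89 genes, each to a promoter of its own. On both strands 3 motifs were searched, namely CCAAT, the TATA-type word TATAAA, and the octamer ATTTGCAT, which OCT1 binds in H2B promoters. The H2A and H2B genes often start back to back, so that 1 stretch of DNA serves both. In the sequences below, capitals mark any of the motifs on either strand.
HIST1H2AC promoter (chr6:26123922-26124221, plus strand): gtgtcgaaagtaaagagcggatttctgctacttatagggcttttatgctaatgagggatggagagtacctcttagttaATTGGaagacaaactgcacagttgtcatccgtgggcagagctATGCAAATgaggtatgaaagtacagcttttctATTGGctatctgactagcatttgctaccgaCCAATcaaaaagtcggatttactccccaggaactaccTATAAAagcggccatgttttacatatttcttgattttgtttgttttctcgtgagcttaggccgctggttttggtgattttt
HIST2H2BE promoter (chr1:149886633-149886932, minus strand): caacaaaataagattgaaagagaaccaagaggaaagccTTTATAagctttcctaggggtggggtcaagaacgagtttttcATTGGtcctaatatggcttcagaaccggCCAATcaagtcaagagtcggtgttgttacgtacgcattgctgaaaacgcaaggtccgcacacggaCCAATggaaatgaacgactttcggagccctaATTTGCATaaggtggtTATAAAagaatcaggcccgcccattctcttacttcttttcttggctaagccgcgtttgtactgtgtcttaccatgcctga
HIST1H4H promoter (chr6:26285485-26285784, minus strand): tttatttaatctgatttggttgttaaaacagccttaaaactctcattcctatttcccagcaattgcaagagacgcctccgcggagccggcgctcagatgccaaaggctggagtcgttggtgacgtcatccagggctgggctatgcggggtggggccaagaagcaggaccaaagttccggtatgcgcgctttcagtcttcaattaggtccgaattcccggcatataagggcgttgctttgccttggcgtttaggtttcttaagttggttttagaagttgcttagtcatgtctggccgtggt
CCAAT was found in 84.8% of the members' promoters and in 34.6% of all 35116 promoters of the same length. It stood in every matched H1, H2A, H2B and H3 promoter and in 23.1% of the 13 H4 promoters. TATAAA stood in 68.2% of the members' promoters and 11.5% of all promoters. The octamer stood in 37.9% of the members' promoters and 1.77% of all promoters, and only H2A (68.8%) and H2B (77.8%) promoters among the 5 classes held it. Where an H2A and an H2B promoter cover the same bases, a motif there is counted for both genes. The HIST1H4H promoter held none of the 3 words, which says only that those letters were not in this window.

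The deposited table held 20911387 to 24135862 counts per soft gel library and 23944277 to 25901518 per rigid dish library, and a count of 0 allows up to 3 counts, which equals 0.116 to 0.143 CPM (counts scaled to the library's total). That limit takes in counting error alone, because reads that PCR has copied do not stand for separate molecules. The first principal component (59.2% of the variance) separated the groups, and the second (17.3%) set rigid dish 1 apart. Of 8 glioma markers, VIM, CD44 and TNC averaged from 603 to 3657 CPM in both groups and SOX2, EGFR and NES from 62.2 to 234.1 CPM. The other 2 were near the floor, with GFAP, an astrocyte marker, at 0.882 ± 0.612 CPM in soft gel and 0.645 ± 0.318 CPM on the rigid dish, and CHI3L1, a marker of mesenchymal glioma, at 0.45 ± 0.175 CPM in soft gel and 0.438 ± 0.151 CPM on the rigid dish (mean ± SD, n = 3 each). The 4 blood cell markers summed to 2.11 to 2.39 CPM in soft gel and 0.259 to 1.31 CPM on the rigid dish, of which LYZ passed the test (1.65 ± 0.243 CPM in soft gel, 0.341 ± 0.209 CPM on the rigid dish, mean ± SD, n = 3 each). The part of such cells in the results was not tested. The 3 endothelial markers summed to at most 0.731 CPM in any library. The share of counts on mitochondrially encoded genes was 7.95% to 9.47% in soft gel and 4.55% to 5.10% on the rigid dish, and with those genes removed the same number of members, 12, was called higher. In bulk RNA, fewer cells making a message and less message per cell cannot be told apart.

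Summed over the 89 members, histone gene counts were higher in every soft gel library than in any rigid dish library. They came to 97.8, 105.7 and 101.5 CPM in the soft gel libraries, against 43.3, 44.8 and 54.4 CPM in the rigid dish libraries. The means were 101.7 ± 3.94 CPM in soft gel and 47.5 ± 6.03 CPM on the rigid dish (mean ± SD, n = 3 each), a ratio of 2.14. On the scale of the authors' TPM values, which are corrected for transcript length, the sums averaged 250.2 ± 5.90 in soft gel and 121.5 ± 11.2 on the rigid dish, a ratio of 2.06. No p is given for these sums, since members of a family are not replicates. The labels do not state poly(A) selection, so how fully these counts cover messages that end at the stem-loop was not tested.

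Most members had few or no counts. In all 6 libraries 24 of the 89 were at 0, of which 13 were pseudogenes. Another 41 had counts but too few for the test (at most 64 over the 6 libraries together). The remaining 24 were tested and held 94.5% of the members' 10553 counts. Of these 24, 17 reached the filter's cutoff (0.416 CPM) in every rigid dish library, and 7 passed through the soft gel libraries, where a gene that is higher has a better chance of passing.

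By edgeR's quasi-likelihood test with Benjamini-Hochberg adjustment over 16099 genes, 12 of the 24 tested members were higher in soft gel at an adjusted p below 0.05, 0 were lower and 12 did not pass. Over all tested genes 15.4% were called higher and 13.2% lower. Of the 12, 10 reached the cutoff in the rigid dish libraries alone, and HIST1H2AI and HIST2H2AA4 did not. At an unadjusted p below 0.05 no tested member was lower either, and DESeq2, limma-voom and limma on log2 TPM called 0 lower. In 15 of the 24 the 3 soft gel libraries all lay above the 3 rigid dish libraries, as they did in 23.5% of all tested genes, and in 0 of the 24 all lay below. The median log2 fold change of the 24 was 1.02, against 0.054 over all tested genes, and 22 of the 24 were above 0. The filter leans this median and these counts upward, because 7 of the 24 passed it only through the soft gel libraries. The rows of HIST2H3A and HIST2H3C are also a single measurement counted as separate members. The calls of 7 of the 12 (HIST1H2AC, HIST2H2AA3, HIST1H2BD, HIST1H2BN, HIST2H2BE, HIST1H3E and HIST1H4H) held whichever library was left out. In all, 8 members were called higher without soft gel 1, soft gel 2 or rigid dish 2, 12 without soft gel 3 or rigid dish 3, and 13 without rigid dish 1. The authors' deposited table gave 11 members higher and 0 lower at its adjusted p below 0.05.

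**Figure D1:**
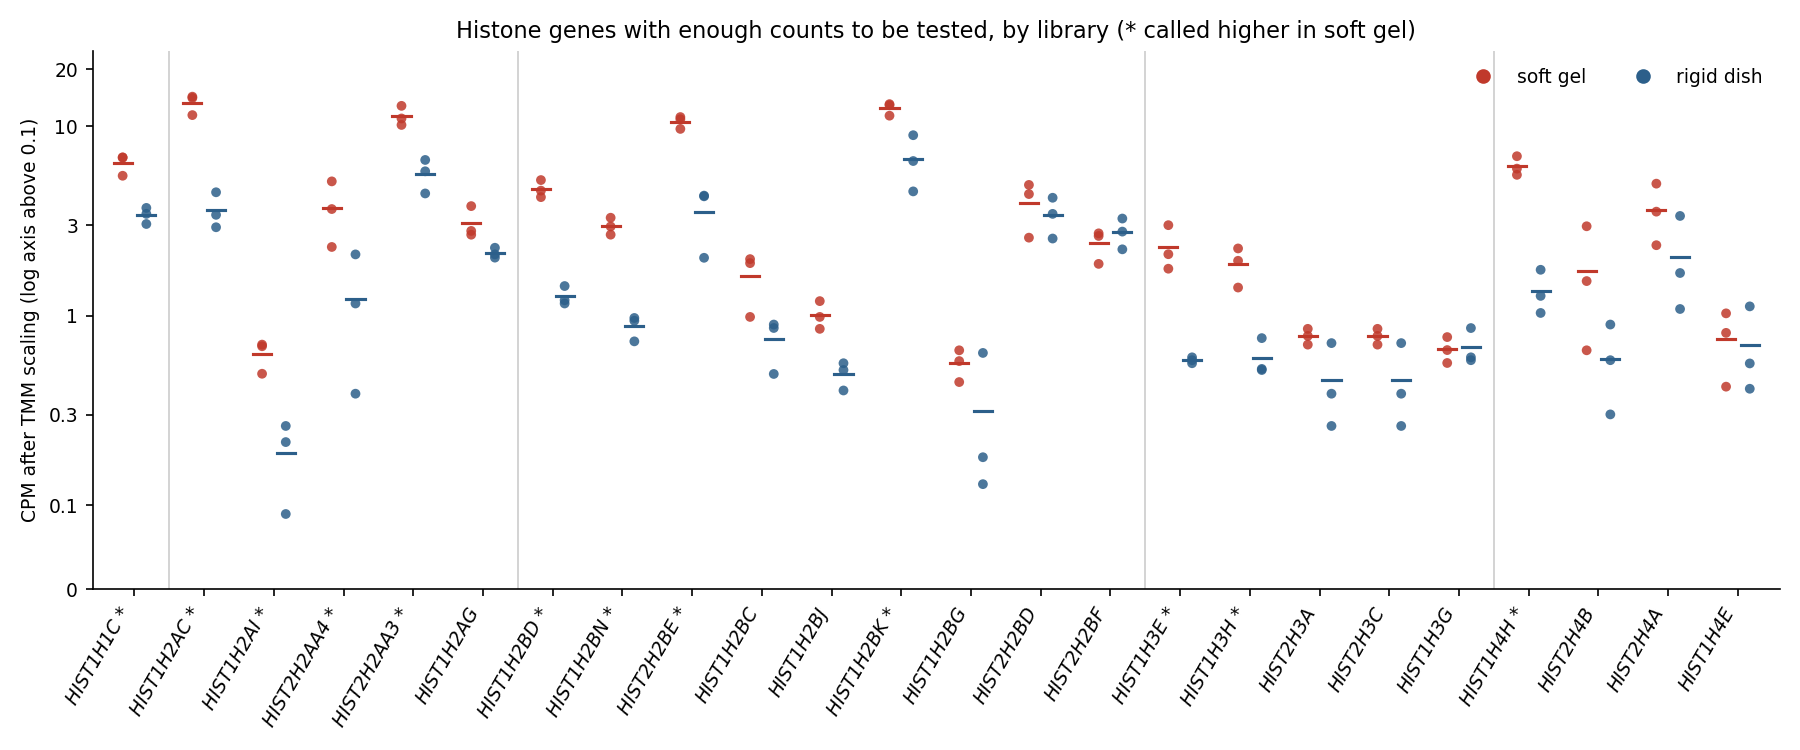
CPM after TMM scaling (vertical axis, logarithmic above 0.1) of the 24 tested histone genes, grouped by class from H1 to H4, with soft gel libraries left and rigid dish libraries right of each tick. Points are libraries and bars are means of 3; in the 12 genes marked with an asterisk all soft gel points lie above all rigid dish points.

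**Figure D2:**
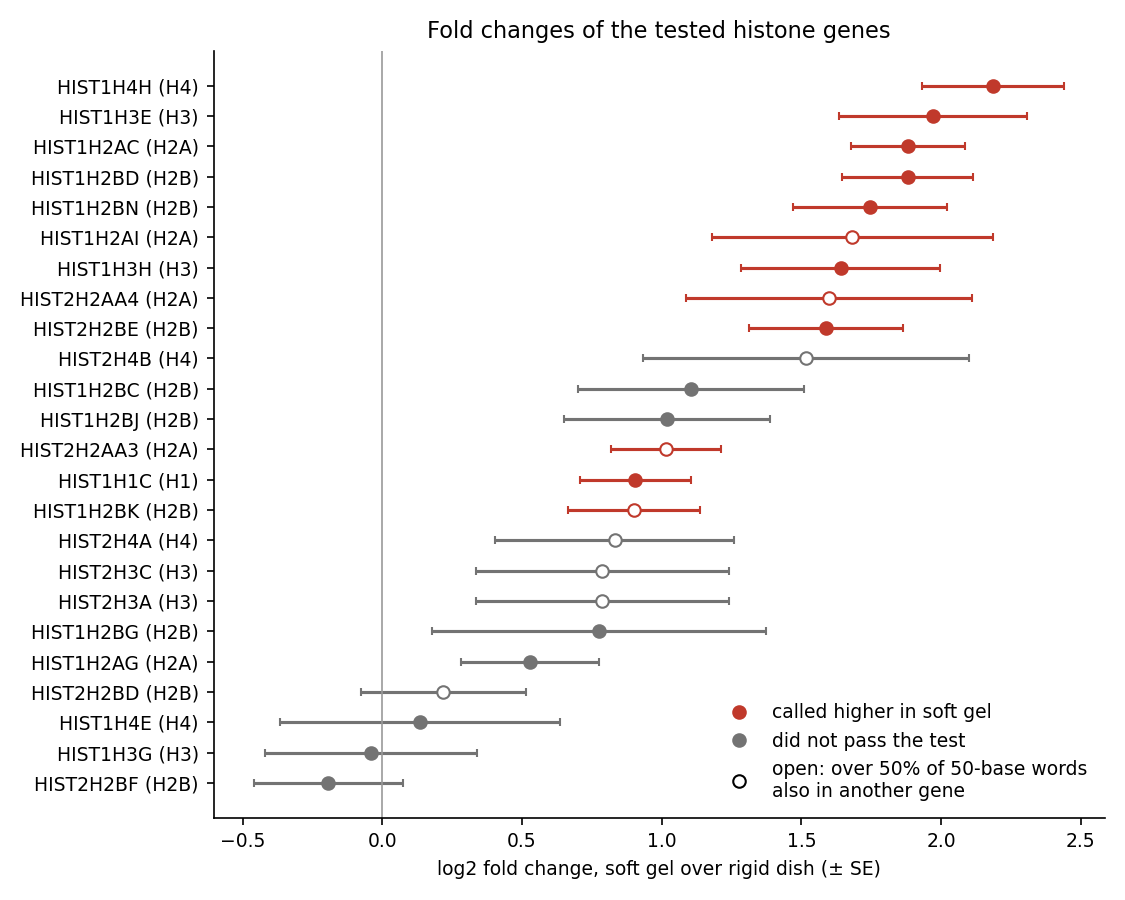
Log2 fold change (soft gel over rigid dish, horizontal axis) with its standard error for each tested member. The 12 called members run from 0.90 to 2.19, and open symbols mark genes with more than 50% of their 50-base words also present in another gene.

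H1 binds the linker DNA, and a single linker histone gene had enough counts to be tested. HIST1H1C (now H1-2, chr6:26055787-26056428, minus strand) encodes H1.2, which many cell types make outside S phase as well. It stood at 5.48, 6.82 and 6.85 CPM in soft gel and 3.71, 3.45 and 3.05 CPM on the rigid dish. The groups did not overlap, and the log2 fold change was 0.91 (SE 0.198, edgeR adjusted p = 0.0111), but without soft gel 2 the adjusted p became 0.0546. GENCODE 29 lists for this gene only the 642-base coding stretch, and none of its 50-base words occurs in another gene. Of the other 7 H1 genes 5 were at 0 in all libraries. HIST1H1E, which encodes H1.4, had 6, 8 and 2 counts in soft gel and 8, 5 and 10 on the rigid dish, and HIST1H1D, which encodes H1.3, had 0 to 3 in soft gel and 2 to 4 on the rigid dish. Both overlapped, so that the class sum (6.68 ± 0.757 CPM in soft gel, 3.83 ± 0.216 CPM on the rigid dish, mean ± SD, n = 3 each) was largely HIST1H1C, which averaged 6.38 CPM in soft gel and 3.40 CPM on the rigid dish.

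H2A pairs with H2B at the outer faces of the nucleosome, and its genes had the highest ratio of the 5 class sums in CPM. Together they had 31.7, 32.5 and 35.4 CPM in soft gel and 12.6, 13.1 and 15.3 CPM on the rigid dish, a ratio of 2.43. HIST1H2AC (now H2AC6, chr6:26124145-26139116, plus strand) led with 11.4, 14.1 and 14.3 CPM in soft gel, against 3.41, 2.93 and 4.48 CPM on the rigid dish. Its log2 fold change was 1.88 (SE 0.205, edgeR adjusted p = 0.000716), and no rigid dish library came near the lowest soft gel library. Only 0.4% of its 50-base words occur in another gene.

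HIST2H2AA3 and HIST2H2AA4 on chromosome 1 encode the same H2A protein, and their transcripts are identical over all 549 aligned bases. The split of reads between them therefore cannot be read as expression of either. HIST2H2AA3 was given 12.8, 10.2 and 10.98 CPM in soft gel and 4.42, 6.63 and 5.78 CPM on the rigid dish (log2 fold change 1.01, SE 0.197, edgeR adjusted p = 0.00694). HIST2H2AA4 was given 2.31, 3.65 and 5.11 CPM in soft gel and 1.16, 0.388 and 2.11 CPM on the rigid dish (log2 fold change 1.60, SE 0.512, edgeR adjusted p = 0.0442). That call held with rigid dish 3 left out (adjusted p = 0.0207) and was lost with any other library left out (0.057 to 0.123). Summed to 1 row, the pair stood at 15.1, 13.8 and 16.1 CPM in soft gel and 5.58, 7.02 and 7.89 CPM on the rigid dish. The summed log2 fold change was 1.14 (SE 0.174, edgeR adjusted p = 0.0028), so the pair was higher in soft gel however the reads were divided.

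HIST1H2AI and HIST1H2AG encode the same H2A protein as several other genes of the chromosome 6 cluster. HIST1H2AI had 12, 17 and 15 counts in soft gel and 7, 5 and 2 on the rigid dish. Its log2 fold change was 1.68 (SE 0.504, edgeR adjusted p = 0.0348), which held with rigid dish 1 left out (0.0384), was lost with any other library left out (0.0812 to 0.134) and failed under DESeq2 (adjusted p = 0.0779) and without the low-count filter (0.0926). Of its 50-base words 62.3% also occur in HIST1H2AJ, which was at 0 in all libraries. HIST1H2AG stood at 3.79, 2.80 and 2.68 CPM in soft gel and 2.28, 2.03 and 2.11 CPM on the rigid dish; the groups did not overlap, but the log2 fold change of 0.53 (SE 0.247) did not pass (edgeR adjusted p = 0.133).

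H2B was the class with the most counts, at 40.3, 44.2 and 39.8 CPM in soft gel and 19.0, 20.3 and 22.9 CPM on the rigid dish, a ratio of 2.0. HIST2H2BE (now H2BC21, chr1:149884459-149886652, minus strand) had 9.67, 10.9 and 11.2 CPM in soft gel and 2.02, 4.27 and 4.30 CPM on the rigid dish. Its log2 fold change was 1.59 (SE 0.275, edgeR adjusted p = 0.00433), with rigid dish 1 the lowest library. HIST1H2BD (now H2BC5) had 4.57, 5.20 and 4.22 CPM in soft gel and 1.16, 1.21 and 1.43 CPM on the rigid dish, and its 2 groups were the more tightly spaced. Its log2 fold change was 1.88 (SE 0.236, edgeR adjusted p = 0.00129). HIST1H2BN (now H2BC15) had 2.68, 3.29 and 2.96 CPM in soft gel and 0.973, 0.732 and 0.941 CPM on the rigid dish (log2 fold change 1.75, SE 0.275, edgeR adjusted p = 0.00313). Its longest annotated transcripts run through HIST1H2AK, on the other strand, over 393 bases, and the labels give no strand setting, so reads of the pair cannot be told apart there; HIST1H2AK itself had at most 3.70 counts in any library.

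HIST1H2BK (now H2BC12) had 11.4, 13.1 and 12.9 CPM in soft gel, against 4.53, 6.55 and 8.96 CPM on the rigid dish. The groups did not overlap, and the log2 fold change was 0.90 (SE 0.236, edgeR adjusted p = 0.022). It did not pass with soft gel 1 (adjusted p = 0.0579), soft gel 2 (0.0833) or rigid dish 2 (0.0801) left out. Of its 50-base words 74.1% also occur elsewhere and 61.4% occur in H2BFS, an H2B gene outside the rule.

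The remaining H2B genes did not pass the test. HIST1H2BC and HIST1H2BG encode the same H2B protein. HIST1H2BC had 46, 49 and 21 counts in soft gel and 24.1, 19.9 and 11 on the rigid dish, with overlap in counts but not in CPM (log2 fold change 1.11, SE 0.404, edgeR adjusted p = 0.0662), and passed with soft gel 3 left out (0.0367). HIST1H2BJ had 29, 21 and 21 counts in soft gel and 15, 12 and 9 on the rigid dish, also without overlap in CPM (1.02, SE 0.369, edgeR adjusted p = 0.0642). HIST1H2BG overlapped, with 14, 11 and 14 counts in soft gel and 17, 3 and 4 on the rigid dish; without rigid dish 1, its high library there, its log2 fold change was 1.82 (edgeR adjusted p = 0.0485), against 0.78 (SE 0.599) with all libraries. HIST2H2BF, which lies on chromosome 1, was the lowest of the tested members at a log2 fold change of −0.19 (SE 0.266). It had 2.64, 2.72 and 1.88 CPM in soft gel and 3.26, 2.24 and 2.78 CPM on the rigid dish. The pseudogene HIST2H2BD had 4.90, 4.38 and 2.58 CPM in soft gel and 4.19, 3.45 and 2.55 CPM on the rigid dish (log2 fold change 0.22, SE 0.295), and 1989 of its 3612 exonic bases lie over HIST2H2BC on the other strand.

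H3 forms the core of the nucleosome with H4, and HIST1H3E, HIST1H3G and HIST1H3H all encode H3.1. Of these, 2 passed the test and HIST1H3G did not. HIST1H3E (now H3C6) had 1.77, 3.00 and 2.11 CPM in soft gel and 0.561, 0.603 and 0.583 CPM on the rigid dish, the tightest rigid dish group of the called members. Its log2 fold change was 1.97 (SE 0.337, edgeR adjusted p = 0.00422). HIST1H3H (now H3C10) had 2.26, 1.95 and 1.41 CPM in soft gel and 0.524, 0.517 and 0.762 CPM on the rigid dish (log2 fold change 1.64, SE 0.356, edgeR adjusted p = 0.0108). With soft gel 1 left out the adjusted p was 0.0569 and with rigid dish 2 left out 0.0508. HIST1H3G had 0.659, 0.771 and 0.563 CPM in soft gel and 0.861, 0.603 and 0.583 CPM on the rigid dish, with overlapping groups and a log2 fold change of −0.04 (SE 0.379).

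HIST2H3A and HIST2H3C encode H3.2 and are identical over all 1656 bases. The deposited counts of the pair were the same in every library, at 19, 21 and 15 each in soft gel and 6.5, 9 and 15.5 each on the rigid dish, so reads were shared out evenly and the 2 rows are a single measurement. Together with HIST2H3D they had 38, 42 and 31 counts in soft gel and 13, 20 and 32 on the rigid dish, with rigid dish 3 close to the lowest soft gel library (log2 fold change 0.78, SE 0.409, edgeR adjusted p = 0.177). The H3 class summed to 6.59, 7.67 and 6.59 CPM in soft gel and 3.09, 3.41 and 4.20 CPM on the rigid dish, a ratio of 1.95. In TPM it summed to 9, 8.76 and 14.8 in soft gel and 7.78, 9.86 and 10.3 on the rigid dish, a ratio of 1.17. The groups thus overlapped in TPM and not in CPM. TPM divides by transcript length, and the listed transcripts of HIST1H3E and HIST1H3H reach 2679 and 1237 bases.

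H4 is nearly the same protein from every H4 gene. HIST1H4H (now H4C8, chr6:26277609-26285638, minus strand) had 5.97, 6.94 and 5.54 CPM in soft gel and 1.27, 1.03 and 1.75 CPM on the rigid dish. Its log2 fold change, 2.19 (SE 0.255, edgeR adjusted p = 0.000992), was the highest of the 24, and none of its 50-base words occurs in another gene. HIST2H4A and HIST2H4B are identical over the 1547 aligned bases and overlapped between groups when counted apart (log2 fold change 0.83, SE 0.428, and 1.52, SE 0.583). Apart, HIST2H4A passed without rigid dish 3 (edgeR adjusted p = 0.0459), and HIST2H4B without soft gel 3 (0.0273) or rigid dish 1 (0.043). Summed, they had 123, 131 and 120 counts in soft gel and 53, 46 and 88 on the rigid dish, which did not overlap and passed the test (log2 fold change 1.02, SE 0.291, edgeR adjusted p = 0.0294). HIST1H4E had 25, 20 and 9 counts in soft gel and 11, 13 and 25 on the rigid dish, with no difference beyond the spread (log2 fold change 0.14, SE 0.501). The H4 class summed to 13.4, 14.1 and 12.6 CPM in soft gel and 4.45, 4.18 and 8.38 CPM on the rigid dish, a ratio of 2.36, with rigid dish 3 high in its group.

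**Figure D3:**
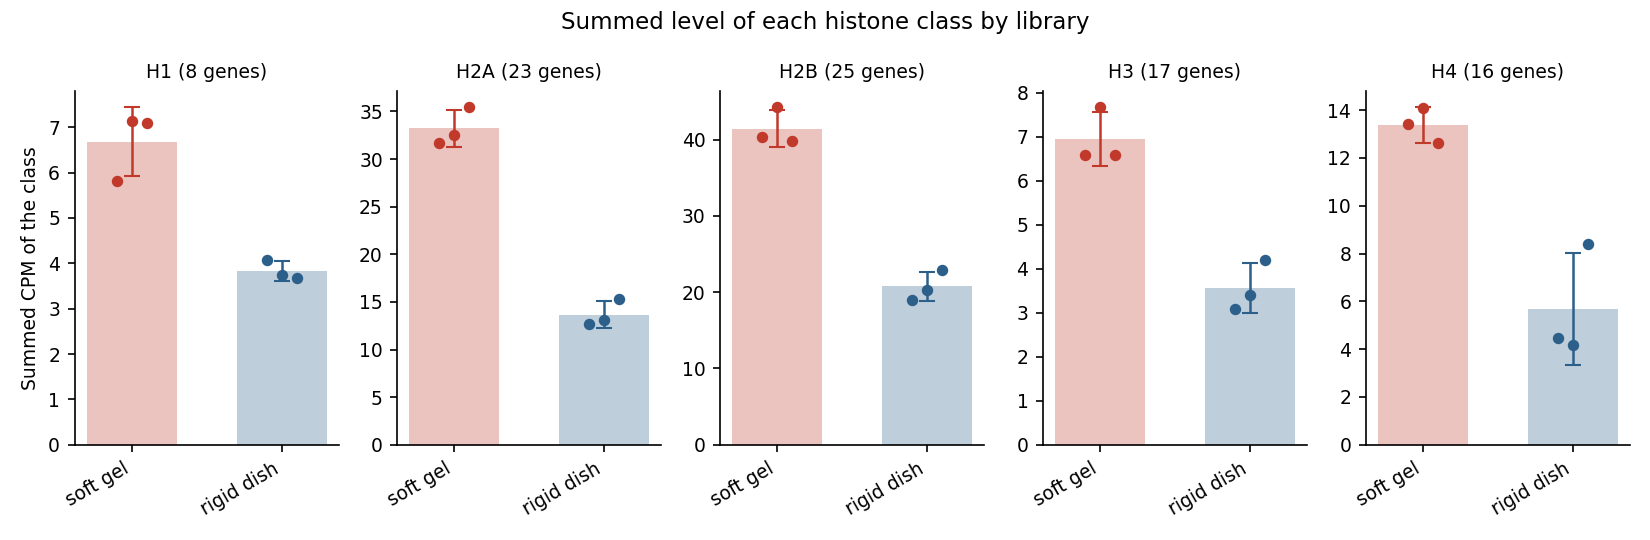
Summed CPM of each histone class by library (points), with the mean (bar) and SD (whisker) of 3 libraries, soft gel left and rigid dish right; each panel has its own vertical axis from 0. In each of the 5 classes every soft gel library lies above every rigid dish library, with ratios of the means from 1.74 (H1) to 2.43 (H2A).

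Per length, the order of the members differed from that of their counts. In TPM, the HIST2H2AA3 and HIST2H2AA4 pair, summed, was highest with 71.3 ± 6.16 in soft gel and 30.5 ± 3.57 on the rigid dish. HIST1H2BK followed with 29.7 ± 2.08 in soft gel and 13.6 ± 4.99 on the rigid dish, and HIST1H1C with 23.0 ± 1.83 in soft gel and 11.7 ± 2.02 on the rigid dish (SD, n = 3 each). On the rigid dish HIST1H2BK and HIST1H1C did not differ beyond their spread. HIST1H2BD, HIST1H2AC, HIST1H4H and the summed HIST2H4A and HIST2H4B lay between 10.7 and 14.2 TPM in soft gel, and HIST2H2BE at 7.41 ± 0.325 TPM. In counts, HIST1H2BK, HIST2H2AA3, HIST1H2AC, HIST2H2BE and HIST1H1C together held 51.3% of the members' total.

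Most tested members had an annotated transcript that goes on past the stem-loop or ends elsewhere. In 25 genes a listed transcript goes on more than 100 bases after the stem-loop or ends elsewhere, and 18 of these were tested. In 9 genes the listed transcripts end within 100 bases of it, and 3 were tested, the HIST2H2AA pair and HIST1H2AI. The other 55 genes have listed transcripts in which the element was not found, and 3 were tested. The first kind summed to 61.7, 67.6 and 59.4 CPM in soft gel and 25.6, 24.1 and 30.2 CPM on the rigid dish, a ratio of 2.36. The second kind summed to 15.8, 15.9 and 18.0 CPM in soft gel and 6.66, 7.75 and 9.41 CPM on the rigid dish, a ratio of 2.09. Neither overlapped between groups.

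The third kind depended on 3 genes, HIST1H1C, HIST1H2BK and HIST1H2BJ. With them it summed to 20.3, 22.2 and 24.2 CPM in soft gel and 11.1, 12.9 and 14.8 CPM on the rigid dish. The 52 others summed to 2.26, 1.43 and 3.45 CPM in soft gel and 2.28, 2.36 and 2.34 CPM on the rigid dish, which overlapped with a ratio of 1.02. This grouping of 52 was made after the values were seen and has no test. A longer listed transcript also collects more reads and the filter acts on counts, so length and level cannot be told apart here, and whether the reads came from polyadenylated messages was not tested.

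**Figure D4:**
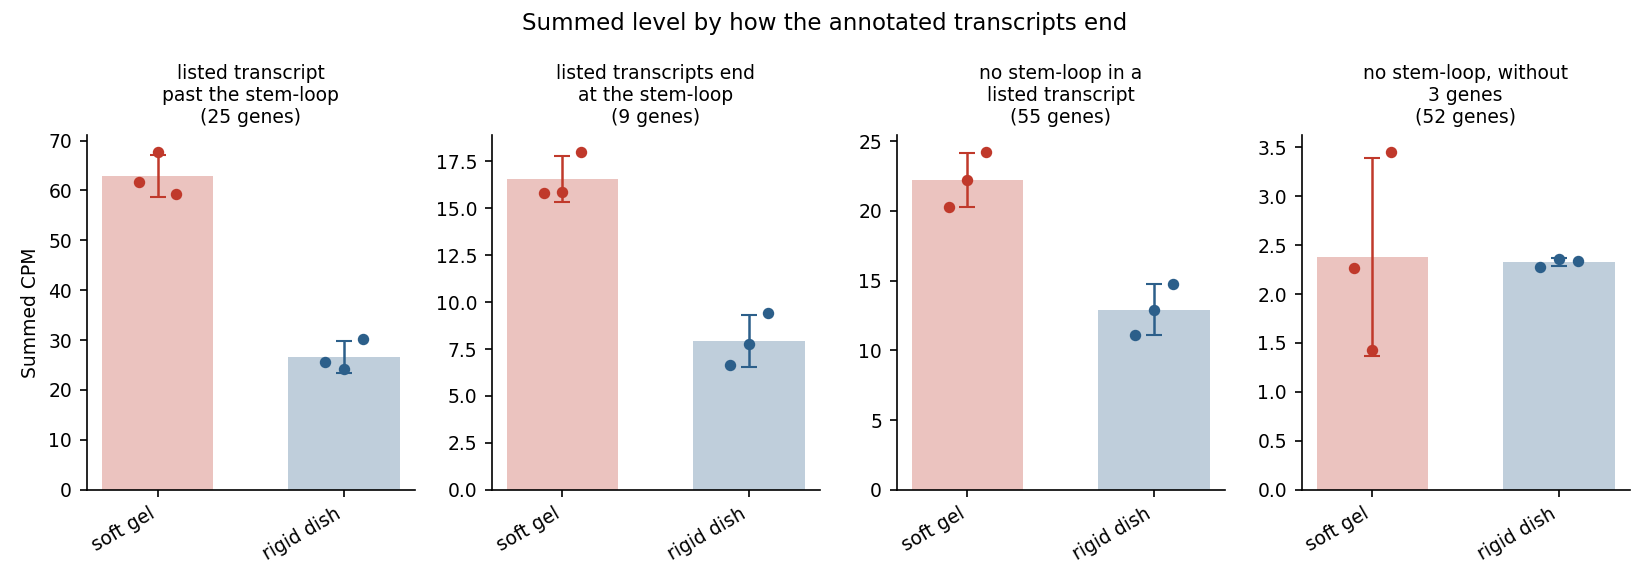
Summed CPM (vertical axes from 0, separate in each panel) of members grouped by how their GENCODE 29 transcripts end, with library points, means and SD, soft gel left and rigid dish right. The 52 genes with no listed stem-loop other than HIST1H1C, HIST1H2BK and HIST1H2BJ show overlapping groups, while the other panels do not overlap.

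The length behind each TPM value, worked out from its ratio to the count, moves with the listed transcripts that reads were assigned to where a gene has several. HIST1H4H, whose listed transcripts have 397, 1034, 1034 and 2163 bases, gave 1023, 1039 and 1108 bases in soft gel and 904, 1807 and 1476 bases on the rigid dish, longer than the 397-base form in every library. HIST1H2BD, with transcripts of 496 and 789 bases, gave 687, 721 and 750 bases in soft gel and 753, 621 and 541 bases on the rigid dish. HIST1H2AC gave 1631 to 1648 bases in soft gel and 1614 to 1631 on the rigid dish. The ranges of the first 2 overlapped between groups, and a change in transcript choice was not detectable at this depth. HIST1H2BK gave 818 to 855 bases in soft gel and 821 to 986 on the rigid dish, longer than its only GENCODE 29 transcript of 381 bases.

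In 16 pairs an H2A and an H2B member start back to back within 1000 bases of each other by their GENCODE starts. Some of these pairs hold a pseudogene, such as HIST1H2AL with HIST1H2BPS2 (954 bases). HIST1H2AK and HIST1H2BN are not among the 16, although their RefSeq promoters overlap, because GENCODE starts HIST1H2BN elsewhere. HIST1H2AC and HIST1H2BC start 219 bases apart; the first had a log2 fold change of 1.88 and passed, the second 1.11 and did not. HIST2H2AC and HIST2H2BE start 323 bases apart. HIST2H2AC had 2.01, 1 and 0 counts in soft gel and 8, 6 and 4 on the rigid dish, too few for the test (without the filter, log2 fold change −2.47, edgeR adjusted p = 0.158), while HIST2H2BE was among the called members. HIST1H2AH, 331 bases from HIST1H2BK, had 0, 1 and 0 counts in soft gel and 2, 3 and 0 on the rigid dish. HIST1H2BL, 268 bases from HIST1H2AI, had 0, 3 and 1 counts in soft gel and 3, 0 and 0 on the rigid dish. HIST1H2AG and HIST1H2BJ start 292 bases apart and both were above 0 in log2 fold change (0.53 and 1.02) without passing. Differences within pairs were not tested.

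The 65 members that were not tested showed no common direction. They summed to 3.70, 4.12 and 5.47 CPM in soft gel and 3.74, 3.09 and 4.63 CPM on the rigid dish, which overlapped. Fitted without the low-count filter, HIST1H4K alone of these passed (adjusted p = 0.0222), with 8.13, 0 and 6.87 counts in soft gel and 0 in each rigid dish library. It is identical to HIST1H4J over 312 aligned bases, and the pair summed to 10, 12 and 15 counts in soft gel and 6, 5 and 21 on the rigid dish, so the call rests on how reads that the 2 rows share were divided. HIST1H4I reached 20, 6 and 2 counts in soft gel and 1, 1 and 3 on the rigid dish (adjusted p = 0.0807, edgeR without the filter). The 18 pseudogenes summed to 5.24, 4.71 and 3.25 CPM in soft gel and 4.61, 3.77 and 2.80 CPM on the rigid dish, also with overlap, and most of these counts were those of HIST2H2BD.

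Shared sequence limits what can be said of single genes. More than 50% of the 50-base words of 23 of the 89 genes occur in another gene, and in 39 genes none do. Of the 24 tested members 9 are above 50%, and 8 of the 12 called members are under 11%. Decimals in the deposited counts occurred in 26 members, 14 of them tested. Another gene's exons overlap those of 7 tested members, of which HIST1H2BN was called higher. The 384 protein-coding olfactory receptor genes, taken as background, summed to 15.95 to 21.9 CPM in soft gel and 8.38 to 11.7 CPM on the rigid dish, or 0.535 to 0.850 counts per kb in soft gel and 0.294 to 0.491 counts per kb on the rigid dish. Only 36 to 50 of the 384 had counts in a given library, so these rates average an uneven background. At the highest of these rates a tested member would gain at most 3.52 counts, and with this background subtracted from every gene the same 12 members were higher.

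Genes that make and handle histone messages were more often lower than higher in soft gel. Of 42 genes for histone gene transcription and message processing, 41 were tested, with 1 higher, 14 lower and a median log2 fold change of −0.23. Over all tested genes 15.4% were called higher and 13.2% lower. The processing count lower was 4 without soft gel 1 or soft gel 2 and 5 without rigid dish 2, and the count higher 5 without soft gel 3, 3 without rigid dish 1 and 0 without any of the other 4 libraries. Calls over the whole table also fell in these fits, from 4599 to 1963 without soft gel 1, 1798 without soft gel 2 and 2026 without rigid dish 2. SLBP, the stem-loop binding protein, averaged 134.1 ± 16.9 CPM in soft gel and 183.6 ± 8.03 CPM on the rigid dish (mean ± SD, n = 3 each; log2 fold change −0.45, SE 0.12, edgeR adjusted p = 0.0227), but did not pass without soft gel 1 (0.0776), soft gel 2 (0.0929) or rigid dish 2 (0.07). CCNA2, the S phase cyclin A2, stood at −0.94 in log2 fold change (SE 0.185, edgeR adjusted p = 0.00725) and the Sm proteins SNRPB and SNRPF −0.77 and −0.75. NELFE and NELFB, subunits of the elongation factor NELF, stood at −0.69 and −0.60, CCNE1, the cyclin that activates NPAT through CDK2, at −0.63, and ZNF473, a zinc finger protein of the U7 cleavage machinery, at −0.60. The calls of NELFB, CCNE1 and ZNF473 were lost without soft gel 1, soft gel 2 or rigid dish 2 (adjusted p from 0.0511 to 0.106) and that of NELFE without soft gel 2 (0.0538), while CCNA2, SNRPB and SNRPF passed whichever library was left out. TUT7, a terminal uridylyltransferase that tags histone messages for decay, was the single gene called higher (log2 fold change 0.91, SE 0.239, edgeR adjusted p = 0.022), and its call held without soft gel 3 (0.00324) or rigid dish 1 (0.0171) but not without any of the other 4 libraries. NPAT itself averaged 10.3 ± 2.77 CPM in soft gel and 6.42 ± 1.63 CPM on the rigid dish (mean ± SD, n = 3 each) and did not pass (log2 fold change 0.68, edgeR adjusted p = 0.0753).

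Among 24 histone chaperone genes, all tested, 11 were lower and 1 higher, where 13.2% of all tested genes were lower and 15.4% higher. Without soft gel 2 the chaperone count lower was 7, and calls over the whole table fell from 4599 to 1798. MCM2, a helicase subunit that also holds H3 and H4, had a log2 fold change of −1.07, ASF1B, which carries H3 and H4 dimers, −1.01, and SSRP1, a subunit of FACT, −0.95; ATRX, which deposits H3.3 with DAXX, was the gene called higher (1.12, SE 0.349, edgeR adjusted p = 0.0405), and its call held with soft gel 3 (0.00173) or rigid dish 1 (0.0418) left out, but with no other library left out. Of 12 variant histone genes outside the clusters 11 were tested, with 7 lower and 0 higher, but 3 lower without soft gel 1 or soft gel 2. H2AFX, the source of H2A.X, averaged 111.6 ± 22.8 CPM in soft gel and 213.4 ± 15.8 CPM on the rigid dish (mean ± SD, n = 3 each), or −0.94 in log2 fold change (SE 0.156, edgeR adjusted p = 0.00377). CENPA, the centromeric H3, had −0.76, and H3F3B, H1FX and H2AFZ each −0.63. H2AFX, H3F3B and H2AFZ passed whichever library was left out, and CENPA did not pass without soft gel 1 (0.078) or soft gel 2 (0.0848). H1FX passed without soft gel 3 (0.00573) or rigid dish 1 (0.0258) but not without any of the other 4 libraries (0.056 to 0.0935). Of 38 S phase genes 32 were lower and 0 higher (18 lower without soft gel 2), led by TK1 (−1.29), MCM5 (−1.14), GINS2 (−1.10) and MCM2. MCM2, CHAF1A and CHAF1B are in both the chaperone and the S phase list. The counts of the called clustered histone genes and of the called S phase genes thus moved in opposite directions between the same libraries, and no test compared the lists. How fully the histone counts cover messages that end at the stem-loop was not tested.

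**Figure D5:**
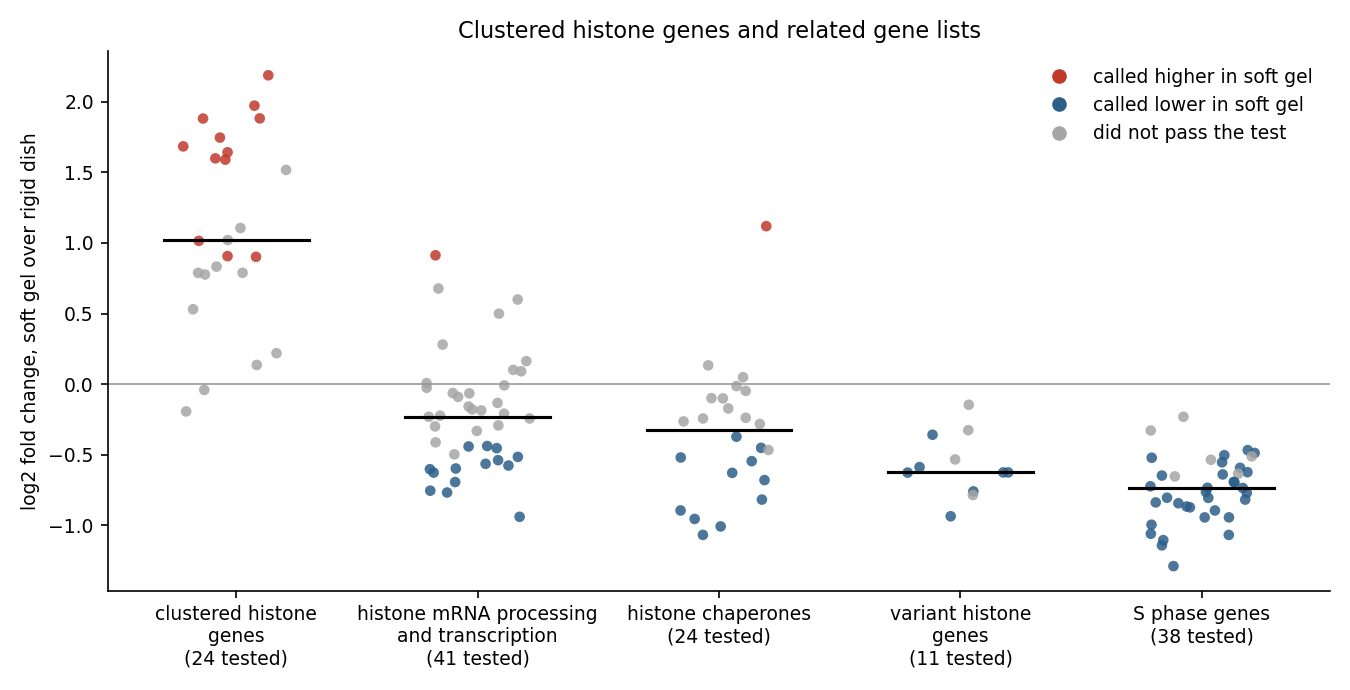
Log2 fold change (soft gel over rigid dish, vertical axis) of each tested gene of 5 lists, with the list median as a bar. The clustered histone genes have a median of 1.02 with 12 genes called higher, and the S phase genes a median of −0.73 with 32 called lower.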

How the data were processed

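RNA from 6 libraries of DBTRG cells was covered by 1 table of 58884 genes, and each of its columns was matched to a library by the labels (0 columns of per-sample values were left unmapped). The authors deposited estimated counts per gene, with decimals in 11.3% to 13.0% of genes, and TPM values. The authors also deposited their own comparison of the groups, as a fold or linear ratio with its log2 value, and p-values before and after adjustment. HISAT2, HTSeq and hg38 are named in the submitters' processing notes without roles; the quantifier and the treatment of reads that match several genes are not given in the sources used here. Gene length, per the file headers, equals a GENCODE 29 transcript for 88 of the 89 members. It was used for the background correction and to work out the lengths behind the TPM values.

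Counts were rounded to whole numbers, filtered with filterByExpr (minimum count 10), scaled by TMM and tested with edgeR 4.0.16 (quasi-likelihood, R 4.3.3) on the whole table, with adjusted p below 0.05 as the threshold. Each fold change divides soft gel by rigid dish. CPM values use TMM-scaled library sizes, with rounded counts for single genes and unrounded counts for sums over members. In simulated data of 15783 genes, 24% of genes changed 1.5-fold, 66% of those changed 2-fold and 87.8% of those changed 4-fold were recovered, and 4.93% of calls were false. The changed genes were drawn from all tested genes, 47 to 50 per fold, far fewer than the 4599 called in the data. These rates may therefore not hold for the members, most of which have low counts. Alternatives were other scalings and filters, DESeq2 1.42.0, limma 3.58.1 (voom, and log2 TPM with 1 or 0.1 added), a replicate block, summed copies, background subtraction, no mitochondrially encoded genes, and each library left out; summed TPM was added after seeing the data. RefSeq promoters were matched by gene ID, symbol or synonym, on the same strand and within 1000 bases of the gene's GENCODE span, taking the start nearest to GENCODE's. Transcript features came from GENCODE release 29 with Biopython 1.88, and sequence words of 50 bases were compared between all its transcripts. The members and the gene lists were chosen with earlier results of these data known. Every tested member is named, untested members where they are near-identical copies, and a few others chosen after their values were seen, and of the other lists the called genes with the largest changes, up to 8 for processing and 4 for the rest. H2AFZ was added because it tied with H1FX.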

Additional observations from a re-analysis of the deposited data

How the results depend on the processing

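The number of members called higher (12) was 8 to 13 on leaving out each library, 8 without soft gel 1, soft gel 2 or rigid dish 2, and 11 to 14 under the other alternatives, with 0 lower under all of them. Whether the replicate numbers pair the libraries cannot be settled from these values. Deviations of same-numbered libraries correlated at 0.217, 0.009 and 0.307. Soft gel 1 and soft gel 3 correlated best with the rigid dish library of their own number, but soft gel 2 correlated best with rigid dish 1 (0.137). With the replicate block 14 members and 6445 genes were called, against 12 and 4599 without it. The log2 ratio of the summed level was 1.10, with 1.04 to 1.21 on leaving out a library and 1.04 from summed TPM. The median log2 fold change of tested members (1.02) was 0.72 over the 65 members fitted without a filter and 1.36 over the 16 past a filter of 1 CPM in 3 libraries, where other genes enter; leaving out a library gave 0.97 to 1.19. Genes called over the whole table numbered 1798 to 6165 on leaving out a library, 2313 with limma on log2(TPM + 1) and 2287 on log2(TPM + 0.1). Of the processing genes, 4 to 17 were called lower on leaving out a library and 5 with limma on either TPM scale; 0 to 5 were called higher on leaving out a library, 4 without a filter, 4 with the replicate block and 0 with limma on either TPM scale. The cause was not tested. Among single members 19 calls were lost and 10 gained over all alternatives, and none reversed its sign past the threshold. HIST2H4B passed with DESeq2 (adjusted p = 0.0494), HIST2H4A (0.0375) and HIST1H2BC (0.0406) with the replicate block, and HIST2H2AA4 failed with log2(TPM + 0.1) (0.0547). HIST1H2AI failed without the low-count filter (0.0926) and with DESeq2 (0.0779). Depth limits the 65 untested members, none of which had more than 64 counts over the 6 libraries.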
